A study of Mus musculus with 60 samples.

Results

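D7F is a mouse cell line transfected with mutant Pabpn1 and with the label low. WTD is the line transfected with wild-type Pabpn1 and also labelled low. The arrays were chosen by their titles, and the 2 lines account for 24 of the 60 arrays in the series and for 6 of its 15 cultures. Each line was grown as 3 cultures. Each culture was hybridised on 4 arrays, with 2 dye orientations on each of 2 array parts that carry different probes, always against the same reference RNA from IM2, the untransfected line. The other lines were D7E (mutant Pabpn1, high), WTA (wild-type Pabpn1, high) and IM2 itself. The labels give neither the mutation nor the tissue of origin of the lines. Each genotype at the low level is 1 line, so what differs between genotypes and what differs between 2 separately derived lines cannot be told apart. For D7F culture 1, the description of its Cy3 array on part I carries the word high, which goes against the title of that array and against the descriptions of the rest of the line. The array was kept as D7F by its title.

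The product of Pabpn1 is a nuclear protein that binds poly(A). It coats the growing poly(A) tail of a transcript and helps poly(A) polymerase to extend it. In people, a lengthened run of alanines at the start of this protein causes oculopharyngeal muscular dystrophy (OPMD), a late-onset weakness of the eyelid and throat muscles in which the protein collects in inclusions in muscle nuclei. The comparison of D7F with WTD asks how gene expression differs when the transfected Pabpn1 is mutant rather than wild-type, at the lower labelled level.

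Values are log2 ratios of a culture over the IM2 reference, each the mean of the 2 dye orientations. They take the deposited logarithms to be of base 10, which the sources used here do not state. A difference is D7F minus WTD, in which the reference cancels, so a positive value means higher in D7F. Calls are from limma with Benjamini-Hochberg adjustment over all probes tested, at an adjusted p under 0.05, and every adjusted p below is from that fit. The labels call the cultures triplicates and do not say how they were separated, so the p-values measure the spread between these cultures. Between 86.0% and 99.7% of the part I values, and between 63.6% and 99.4% of the part II values, were present on each D7F or WTD array, and 0.737% to 19.9% of their filled values lay at a limit and were left out. The fit also draws on the other lines, some with poorer arrays. On part II, filled values went down to 41.3% in IM2 and 49.9% in WTA, and up to 35.8% lay at a limit in IM2. Of 10 arrays with many values missing or at a limit, 1 was of WTD and none of D7F. On part I the sign of the ratios is borne out by Pabpn1, described next. Part II holds no such marker, so its direction rests on taking its deposited ratios as culture over reference, as on part I. The 156 genes tested on both parts had differences that correlated with r = 0.178, with 86 of the same sign. The dye orientations of 1 culture correlated weakly over probes, with r from 0.0406 to 0.207. Cultures of 1 line correlated with r from 0.326 to 0.470 in D7F and 0.429 to 0.528 in WTD on part I, and from 0.263 to 0.291 in D7F and 0.278 to 0.406 in WTD on part II.

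Pabpn1 itself was measured first. Its log2 ratio was 1.04, 0.83 and 0.87 in the 3 D7F cultures and 1.47, 1.47 and 1.35 in the 3 WTD cultures. The mean was 0.92 ± 0.11 in D7F and 1.43 ± 0.07 in WTD (SD, n = 3 each), below the 1.61 of D7E and 2.19 of WTA that are labelled high. Both low-level lines lay above the untransfected reference, all D7F cultures lay below all WTD cultures, and every transfected line had a positive ratio on all of its part I arrays (24 of 24). The difference of -0.52 (SE 0.14, 95% interval -0.82 to -0.21 for this probe alone) did not pass the test over all probes, with an adjusted p of 0.202 (limma). Across the alternative settings it ranged from -0.82 to -0.45 and never passed. The lower Pabpn1 ratio of D7F goes together with its genotype and with the line itself, and these cannot be told apart. Whether the probe detects the transfected transcript, the cell's own or both is not given in the sources used here.

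Of 9706 probes tested, for 8107 genes, 44 passed in D7F against WTD, which is 0.453% of the probes. Of these, 23 were higher (0.237%) and 21 lower (0.216%) in D7F, and 29 differed by more than 2-fold. The D7F and WTD cultures did not overlap at any of the 44, while among the 8020 tested probes with all 6 cultures measured D7F lay wholly above WTD at 9.53% and wholly below at 7.01%. The median difference over all tested probes was 0.03, and 706 probes had an unadjusted p under 0.05. With 1 probe per gene, 55.6% of all tested genes had a positive difference. At an unadjusted p under 0.05, 4.38% of the genes were higher and 3.24% lower in D7F. These shares are the background for the counts by gene list below. The 44 probes name 39 genes, and 5 have no single gene symbol. Among the 39 genes, 10 kept their call in all 19 alternative settings, namely 3830403N18Rik, Gpx7, Lrrn1, Pvalb, Ces2g, Cdkn1c, Tmod4, Xlr, Prr32 and Msln. The calls of the others were less steady: 14 probes passed without D7F culture 2 and 25 without D7F culture 3, and 16, 18 and 21 passed without WTD culture 1, 2 and 3. Of 36 named genes that could be fitted in all 6 such cases, 12 kept their call in each. With D7F and WTD alone in the fit 29 probes passed, 22 of them among the 44, and 18 of the 39 genes lost their call.

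**Figure D1:**
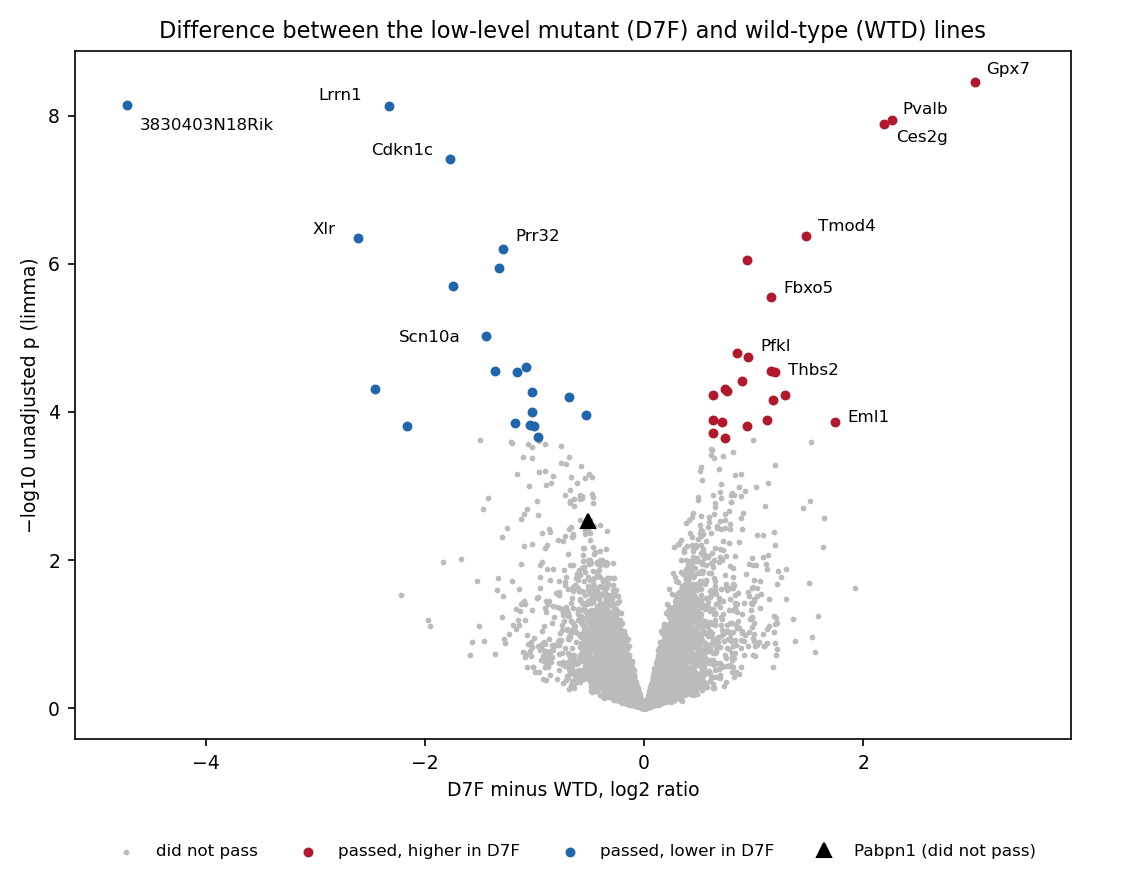
Each point is 1 of the 9706 tested probes, with the D7F minus WTD difference in log2 ratio on the horizontal axis and the -log10 of the unadjusted limma p on the vertical axis. The 23 probes that passed as higher in D7F are red, the 21 that passed as lower are blue, and Pabpn1, at a difference of -0.52, is the triangle.

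The called gene with the widest gap between the lines was 3830403N18Rik, an X-linked gene that the gene table also lists under the name Xlrl, that is, as a relative of the lymphocyte-regulated Xlr genes of the X chromosome. Xlr itself, a nuclear protein gene of that family best known from lymphocytes and the germ line in mice, was also lower in D7F. The log2 ratios of 3830403N18Rik were -2.58, -2.88 and -1.64 in D7F cultures, against 2.08, 1.83 and 3.15 in WTD cultures. Every D7F culture was below the reference and every WTD culture above it, and the difference of -4.72 (SE 0.38, adjusted p = 2.43e-05, limma) corresponds to a 26.4-fold lower ratio in D7F. Xlr had log2 ratios of -1.32, -0.53 and -1.36 in D7F and of 1.74, 1.46 and 1.42 in WTD, a difference of -2.61 (SE 0.27, adjusted p = 0.00055, limma). The signs again split by line. A second Xlr probe did not follow: its difference was 0.01 (adjusted p = 0.999, limma), with overlapping cultures.

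The promoters of these genes are shown because the 2 genes were both lower in D7F and have upstream sequences that are near-identical over most of their length. Both are from RefSeq on GRCm38.p6, 240 of the bases before the start of each gene, 5′ to 3′ on the gene's own strand, at chrX:56136322-56136561 on the plus strand for 3830403N18Rik and chrX:53797717-53797956 on the minus strand for Xlr. Capitals mark the 102-base run that the sequences share without a mismatch.
3830403N18Rik: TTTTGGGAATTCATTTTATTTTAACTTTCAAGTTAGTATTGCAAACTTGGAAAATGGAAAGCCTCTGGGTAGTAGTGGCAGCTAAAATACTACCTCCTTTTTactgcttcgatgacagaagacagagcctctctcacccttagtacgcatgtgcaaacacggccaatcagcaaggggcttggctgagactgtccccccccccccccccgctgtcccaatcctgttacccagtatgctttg
Xlr: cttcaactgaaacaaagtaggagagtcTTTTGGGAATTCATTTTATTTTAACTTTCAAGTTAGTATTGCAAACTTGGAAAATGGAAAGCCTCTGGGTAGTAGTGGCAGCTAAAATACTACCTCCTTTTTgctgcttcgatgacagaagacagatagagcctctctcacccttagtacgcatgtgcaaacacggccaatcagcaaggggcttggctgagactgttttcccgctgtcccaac
A local alignment, which keeps only the best-matching stretch, had 196 columns, of which 191 (97.4%) were identical. Of 32851 promoters in the table these 2 alone held an exact copy of the 102-base run. Promoters with a similar but inexact run were not searched for. The shared run describes the upstream sequence only. Whether the 2 probes tell the transcripts of the 2 genes apart was not tested.

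Further genes on the X chromosome were Prr32, a proline-rich protein gene, and Car5b, a mitochondrial carbonic anhydrase. Prr32 was lower in D7F, at -1.49, -1.72 and -1.61 in D7F cultures and -0.08, -0.51 and -0.37 in WTD cultures (difference -1.29, SE 0.15, adjusted p = 0.000689, limma). Car5b was higher, with a mean log2 ratio of -0.19 in D7F and -1.13 in WTD (difference 0.94, adjusted p = 0.0369, limma), but its second probe differed by only -0.01 and its call ended when any 1 culture was left out. With these, 4 of 274 tested probes on the X chromosome passed (1.46%).

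The list of thin filament, Z-disc and M-band genes held calls for Tmod4 and Myoz1, both higher in D7F. Tmod4, a tropomodulin that caps the pointed ends of thin filaments in skeletal muscle, had log2 ratios of 1.23, 1.58 and 1.39 in D7F and -0.03, -0.12 and -0.08 in WTD. All D7F cultures were well above the reference, while the WTD cultures sat at it (difference 1.47, SE 0.15, adjusted p = 0.00055, limma). Myoz1, a Z-disc protein that binds calcineurin and alpha-actinin, was 1.01, 1.34 and 0.95 in D7F and 0.24, 0.42 and 0.38 in WTD. Its difference was 0.75 (SE 0.12, adjusted p = 0.02, limma), and it ended without D7F culture 2 or any WTD culture. Of the 37 tested genes of the thin filament, Z-disc and M-band list, Tmod4 and Myoz1 passed as higher and none as lower. The list's median difference was 0.08, beside 0.03 over all tested genes, and 23 of the 37 were positive, beside 55.6% of all tested genes. Muscle myosin genes gave no call in limma among 7 tested, 1 of them with an unadjusted p under 0.05. Closest was Myl2, the slow and cardiac regulatory light chain, at 1.10, 0.96 and 0.65 in D7F and 2.22, 2.53 and 2.46 in WTD (difference -1.50, SE 0.30, adjusted p = 0.0507, limma).

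Calcium handling in muscle was represented by a gene in each direction. Pvalb encodes parvalbumin, the calcium buffer that speeds relaxation in fast fibres. Its log2 ratios were 0.47, 0.69 and 0.57 in D7F, against -1.55, -1.60 and -1.92 in WTD, so D7F lay above the reference and WTD below it, with a difference of 2.27 (SE 0.17, adjusted p = 2.48e-05, limma). Sln encodes sarcolipin, a small inhibitor of the calcium pump of the sarcoplasmic reticulum. It was -0.71, -0.69 and -0.72 in D7F and 0.33, 0.60 and 0.44 in WTD (difference -1.17, SE 0.19, adjusted p = 0.0133, limma). Without D7F culture 2 or 3 or WTD culture 2 or 3 the Sln call ended, at an adjusted p of up to 0.0773 (limma). The other 18 of the 20 tested genes of this list did not pass, and the list's median was 0.04.

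Among the regulators of muscle differentiation, 1 of 25 tested genes passed. Csrp3, the muscle LIM protein found at the Z-disc and in the nucleus, was -0.23, -0.39 and -0.21 in D7F and 0.53, 0.36 and 0.34 in WTD (difference -0.69, SE 0.12, adjusted p = 0.021, limma), and its call ended when any 1 culture of either line was left out. The myogenic master regulators did not pass. Myod1 differed by -0.07, Myog by -0.28 and Myf5 by 0.16, with overlapping cultures in each, and the muscle stem cell factor Pax7 by -0.02. Myf6, the fourth factor of the MyoD family, was 0.76, 0.87 and 0.66 in D7F and 0.20, 0.10 and 0.15 in WTD, and its difference of 0.61 stayed just short of the threshold (adjusted p = 0.0569, limma). Because the arrays give ratios, these values show how the lines differ and not whether either line is muscle.

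Several called genes are known from energy use in muscle, of which Cox8b alone belongs to a gene list used here. Mss51, a mitochondrial protein gene expressed mainly in fast skeletal muscle, was 0.90, 0.90 and 0.97 in D7F and -0.64, 0.05 and -0.23 in WTD (difference 1.19, SE 0.19, adjusted p = 0.0133, limma). Nmrk2, the muscle kinase that turns nicotinamide riboside into a precursor of NAD, went the other way at -1.05, -1.12 and -1.21 in D7F and 0.12, 0.54 and 0.03 in WTD (difference -1.36, SE 0.22, adjusted p = 0.0133, limma). Cox8b, the heart and skeletal muscle form of a cytochrome c oxidase subunit, was -0.30, -0.58 and -0.67 in D7F and 0.41, 0.63 and 0.54 in WTD (difference -1.04, SE 0.19, adjusted p = 0.0369, limma). All 3 calls ended without D7F culture 2, among other cultures. Cox8b was the only call among 25 tested genes of muscle energy metabolism, whose median was -0.03, and -0.07 with arrays centred and scaled.

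The probe named Snap25, a synaptic vesicle fusion protein of neurons, gave almost the same values as the Cox8b probe. It was -0.25, -0.53 and -0.65 in D7F and 0.38, 0.67 and 0.53 in WTD (a 2-fold lower ratio in D7F, adjusted p = 0.0369, limma). Over the 15 cultures the 2 probes correlated with r = 0.996 and never differed by more than 0.13, and over the 30 part I arrays with r = 0.993. Among 4695580 pairs of the 3065 tested part I probes measured on every array, none had a higher correlation, although the genes lie on chromosomes 7 and 2. Whether the 2 spots carry the sequences named for them was not tested. Like that of Cox8b, the Snap25 call ended when any 1 culture was left out. Snap25 was the only call among the 7 tested neural and Schwann cell markers. None of the 37 tested markers of fibroblasts, endothelium, leukocytes, smooth muscle, adipocytes, bone or epithelium passed in limma, and 2 of them had an unadjusted p under 0.05.

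**Figure D2:**
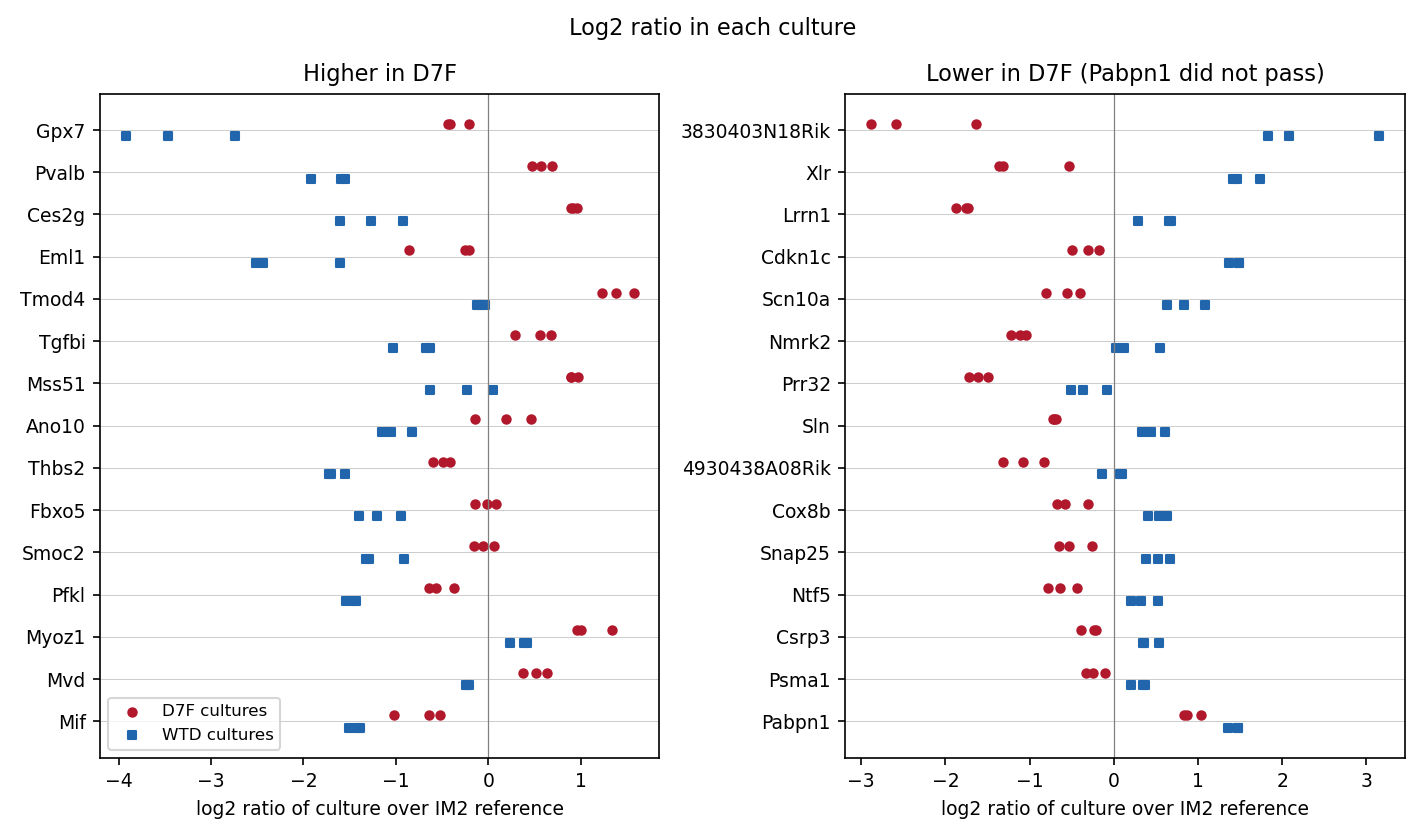
Log2 ratio over the IM2 reference (horizontal axis) in each D7F culture (red circles) and each WTD culture (blue squares) for Pabpn1 and the called genes named by the rule. Genes higher in D7F are on the left and genes lower in D7F on the right. Called genes chosen after their values were seen are not drawn. Red and blue do not overlap for any gene shown; Pabpn1, in the bottom row on the right, did not pass.

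The largest positive difference among the called genes was that of Gpx7, a glutathione peroxidase of the endoplasmic reticulum that uses peroxide to help form disulphide bonds. Its log2 ratios were -0.44, -0.21 and -0.41 in D7F, against -2.74, -3.92 and -3.47 in WTD. The difference of 3.02 (SE 0.23, adjusted p = 2.43e-05, limma), or 8.14-fold, came with D7F near the untransfected line and WTD far below it: D7F differed from IM2 by -0.35 (adjusted p = 0.408, limma) and WTD by -3.37 (adjusted p = 8.47e-06, limma). No other gene passed among 38 tested antioxidant enzymes or among 39 tested genes of endoplasmic reticulum folding. Ces2g, a carboxylesterase of the endoplasmic reticulum, was 0.92, 0.90 and 0.96 in D7F and -1.60, -1.27 and -0.92 in WTD (difference 2.19, SE 0.18, adjusted p = 2.48e-05, limma).

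Among glycolytic and hypoxia-responsive genes, Pfkl and Mif were higher in D7F. Pfkl, the liver-type phosphofructokinase of the committed step of glycolysis, was -0.64, -0.37 and -0.57 in D7F and -1.54, -1.44 and -1.46 in WTD (difference 0.95, SE 0.14, adjusted p = 0.011, limma). Mif, a secreted inhibitor of macrophage migration that responds to low oxygen, was -0.52, -0.64 and -1.02 in D7F and -1.42, -1.50 and -1.39 in WTD (difference 0.71, SE 0.13, adjusted p = 0.0366, limma). Both lines were below the reference at both genes, WTD further. Without D7F culture 2 or WTD culture 1 both calls ended, and that of Mif in 3 further cases. Of 34 tested hypoxia-responsive genes these 2 passed. A positive difference with an unadjusted p under 0.05 was found at 9 of the 34, beside 4.38% of all tested genes. In the list 29 had a positive difference and the median was 0.28, beside 0.03 and 55.6% positive over all tested genes. The vasodilator peptide gene Adm was -2.01, -2.33 and -2.10 in D7F and -3.39, -3.14 and -3.48 in WTD, and its difference of 1.19 did not pass (adjusted p = 0.077, limma), nor did that of the mitophagy receptor Bnip3 (0.77, adjusted p = 0.17, limma). The list's median stayed positive with arrays centred (0.29) and with arrays centred and scaled (0.38).

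In cholesterol synthesis a single gene was called. Mvd, the decarboxylase that completes the mevalonate part of the pathway, was 0.38, 0.51 and 0.64 in D7F and -0.23, -0.24 and -0.21 in WTD (difference 0.74, SE 0.13, adjusted p = 0.02, limma), a call that held without D7F culture 1 and ended without any other single culture. It was the only call among 19 tested genes, of which 15 had a positive difference, with a median of 0.23. Over all tested genes 55.6% were positive and the median was 0.03. Fdft1, which makes squalene, was 0.56, 0.77 and 0.69 in D7F and 0.08, 0.14 and 0.24 in WTD without passing (difference 0.52, adjusted p = 0.0795, limma).

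Cdkn1c, the imprinted cyclin-dependent kinase inhibitor p57 that halts the cell cycle during differentiation, was lower in D7F. Its log2 ratios were -0.17, -0.50 and -0.30 in D7F, against 1.49, 1.36 and 1.49 in WTD. The WTD cultures were tightly grouped above the reference and the D7F cultures just below it, a difference of -1.77 (SE 0.15, adjusted p = 6.29e-05, limma). It was the only call among 32 tested genes of cell cycle exit and among 25 tested imprinted genes. Fbxo5, an inhibitor of the anaphase-promoting complex that prevents early exit from mitosis, was -0.14, 0.09 and -0.01 in D7F and -0.94, -1.39 and -1.20 in WTD (difference 1.16, SE 0.15, adjusted p = 0.00212, limma). None of the 39 tested genes of DNA replication passed in limma, 7 had an unadjusted p under 0.05, all lower, and 31 had a negative difference with a median of -0.19, which was -0.11 with arrays centred and scaled. Over all tested genes, 3.24% were lower at an unadjusted p under 0.05, 55.6% had a positive difference and the median was 0.03. None of the 30 tested genes of mitosis passed either, 9 had an unadjusted p under 0.05, all lower, with a median of -0.14. There the lowest p was that of Ube2c, the ubiquitin-conjugating enzyme of the anaphase-promoting complex, at -2.34, -1.68 and -1.67 in D7F and -0.39, -0.73 and -0.96 in WTD (difference -1.20, adjusted p = 0.0507, limma). The mitosis list also had a negative median in D7E minus WTA, at -0.31, beside -0.01 over all tested genes.

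The list of noncollagen matrix proteins and proteases held 1 call among 51 tested genes, Thbs2, which was higher in D7F. Thbs2, a thrombospondin that binds cells and matrix, was -0.41, -0.49 and -0.60 in D7F and -1.55, -1.73 and -1.70 in WTD (difference 1.16, SE 0.18, adjusted p = 0.0133, limma). Tgfbi, from the TGF-beta list, an adhesion protein induced by TGF-beta, was 0.56, 0.68 and 0.29 in D7F and -0.68, -1.03 and -0.63 in WTD (difference 1.29, SE 0.21, adjusted p = 0.0207, limma). Smoc2, a calcium-binding matricellular protein that is in no list, was -0.05, 0.06 and -0.16 in D7F and -1.33, -1.28 and -0.92 in WTD (difference 1.12, SE 0.20, adjusted p = 0.0366, limma). The Smoc2 call ended when any 1 culture was left out, that of Tgfbi in 5 of 6 such fits and that of Thbs2 in 5 of 6. The median of the matrix list was 0.07. No gene of the collagen list passed in limma among 37 tested, 3 of which had an unadjusted p under 0.05.

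Lrrn1, a leucine-rich repeat membrane protein of developing nervous tissue, was among the most strongly lowered genes. It was -1.73, -1.87 and -1.76 in D7F and 0.29, 0.65 and 0.68 in WTD (difference -2.33, SE 0.17, adjusted p = 2.43e-05, limma), while its probe on part II differed by only -0.49 (adjusted p = 0.642, limma). Scn10a, a voltage-gated sodium channel of sensory neurons, was -0.56, -0.81 and -0.40 in D7F and 0.63, 0.84 and 1.08 in WTD (difference -1.44, SE 0.20, adjusted p = 0.00652, limma). Ntf5, a neurotrophin that acts through the receptor TrkB, had means of -0.62 in D7F and 0.35 in WTD (difference -0.97, adjusted p = 0.0491, limma). Eml1, a microtubule-associated protein, was higher at -0.86, -0.25 and -0.20 in D7F and -2.43, -2.51 and -1.61 in WTD (difference 1.75, SE 0.33, adjusted p = 0.0366, limma). The calls of Lrrn1 and Scn10a held without any 1 culture, that of Ntf5 ended in every such fit, and that of Eml1 ended without D7F culture 2 or 3 or WTD culture 1 or 2.

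Further calls fell to genes of varied function. Ano10, a membrane protein of the anoctamin family, averaged 0.17 in D7F and -1.01 in WTD (difference 1.18, adjusted p = 0.0223, limma). Psma1, a subunit of the proteasome core, averaged -0.22 in D7F and 0.31 in WTD (difference -0.53, adjusted p = 0.0338, limma), and it was the only call among 37 tested proteasome genes. The uncharacterised gene 4930438A08Rik averaged -1.07 in D7F and 0.01 in WTD (difference -1.08, adjusted p = 0.0133, limma). Without D7F culture 2 or WTD culture 2 the calls of Ano10, Psma1 and 4930438A08Rik ended, with further cases for each. Of the called genes, 10 lay outside the rule by which genes were named and were chosen after their values were seen. Among these Msln, the surface protein mesothelin, had means of 0.39 in D7F and -0.55 in WTD (difference 0.94, SE 0.10, adjusted p = 0.00086, limma). Gem, a small GTPase of calcium channel regulation (difference 0.85), Cmya5, a large muscle protein that binds dystrophin-associated partners (0.89), Xrcc5, the Ku80 subunit of DNA end joining (0.63), Sacm1l, a phosphoinositide phosphatase (0.63), Hebp2, a heme-binding protein (0.63), and Car5b were higher in D7F. Lower were the tachykinin gene Tac4 (-1.75), the Na,K-ATPase regulator Fxyd6 (-2.46) and the testis form of a cytochrome c oxidase subunit, Cox8c (-1.03), each measured in only 2 D7F cultures. When any 1 culture was left out the calls of Xrcc5, Sacm1l and Hebp2 ended, while that of Gem ended only without WTD culture 1. The call of Tac4 held in the 4 such fits that could be run, that of Fxyd6 ended without WTD culture 1 or 2, that of Cox8c without any WTD culture, and that of Cmya5 held only without WTD culture 3. When values at the limits were kept, the Cox8c difference turned to 0.42 and that of Fxyd6 shrank to -0.73 (adjusted p = 0.9999, limma), and on Cy3 arrays alone that of Fxyd6 was -1.36.

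The machinery that Pabpn1 belongs to showed no call. Of 30 tested genes of polyadenylation and poly(A) binding none passed in limma and 2 had an unadjusted p under 0.05, with a median of 0.07 and 19 positive, and by lowest p Pabpn1 itself led the list. Pabpc1, the cytoplasmic poly(A)-binding protein, differed by -0.00 (adjusted p = 0.999, limma). Among 49 tested splicing and hnRNP genes none passed in limma and 2 had an unadjusted p under 0.05, with a median of -0.05. The lowest p there was that of Ptbp2, the neuronal polypyrimidine tract-binding protein, at -0.11, -0.36 and -0.11 in D7F and 0.18, 0.43 and 0.21 in WTD (difference -0.47, adjusted p = 0.14, limma). Of the 39 lists of genes by function, 16 held at least 1 call and 23 held none, and the lists without a call included ribosomal proteins (62 tested), oxidative phosphorylation (52 tested), ubiquitin enzymes (61 tested) and interferon-induced genes (40 tested).

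**Figure D3:**
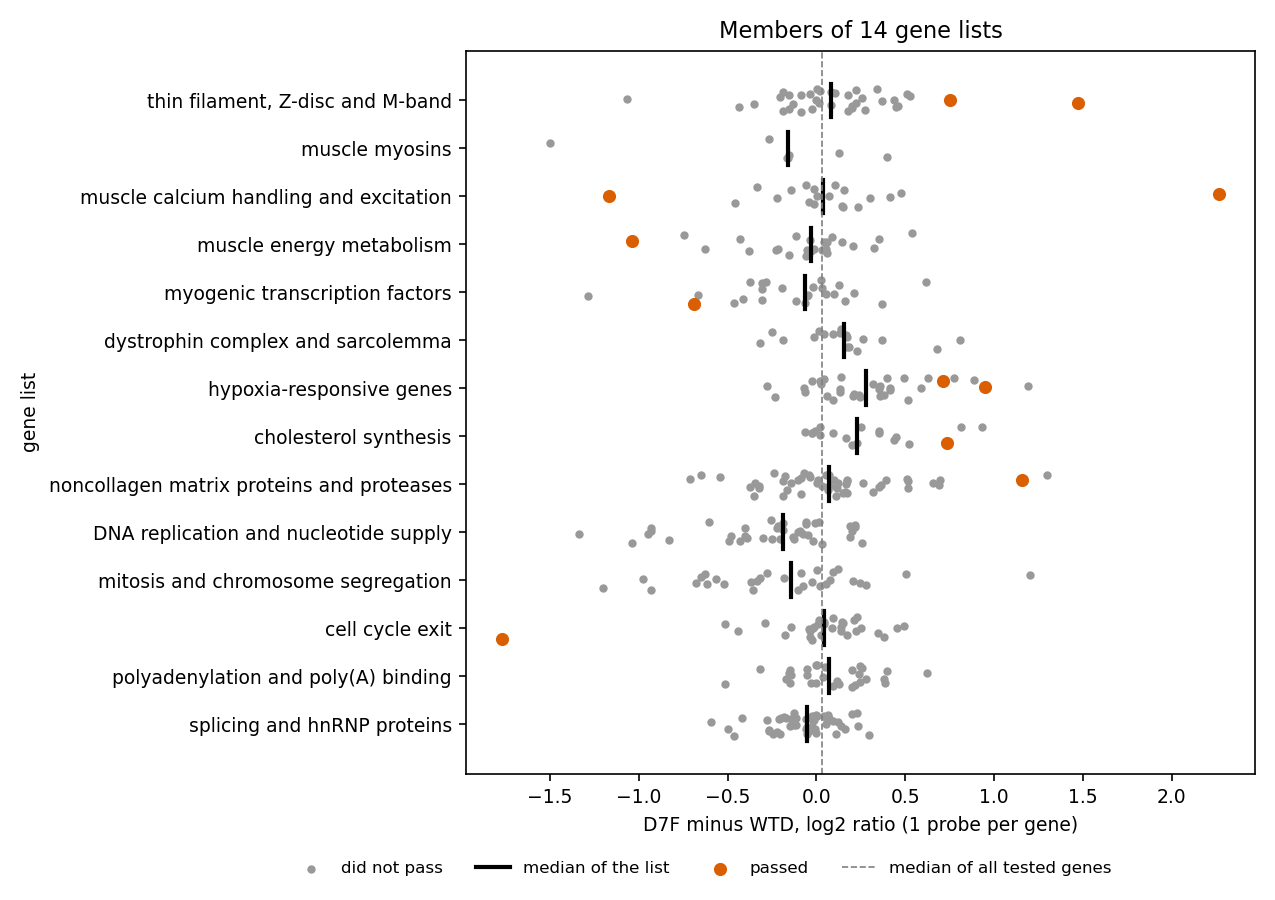
D7F minus WTD difference in log2 ratio (horizontal axis) for the tested members of 14 gene lists, 1 point per gene at its probe with the lowest p. Orange points passed the test, black bars are list medians and the dashed line is the median of all tested genes, 0.03; the hypoxia-responsive list has its median at 0.28 and DNA replication at -0.19.

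Set among all 5 lines, the 44 probes more often had WTD at an end of the order than D7F. WTD had the highest mean at 14 probes and the lowest at 20, and D7F had the highest at 9 and the lowest at 16. The 44 were chosen for a gap between D7F and WTD, which itself tends to place these lines at the ends. The order of the lines was not counted over all tested probes. Pvalb, Ces2g, Thbs2, Fbxo5, Smoc2 and Gpx7 were lowest in WTD, and Cdkn1c, Sln, Xlr, 3830403N18Rik and Lrrn1 were highest in WTD and lowest in D7F. Tmod4 is an example with D7F away from IM2 and WTD not: D7F differed from IM2 by 1.43 (adjusted p = 0.000602, limma) and WTD by -0.04 (adjusted p = 0.91, limma). The Tmod4 mean was also above the reference in D7E (0.83) and in WTA (1.45), which was the highest line. Cdkn1c is the opposite case for D7F and WTD, at -0.10 in D7F (adjusted p = 0.726, limma) and 1.67 in WTD (adjusted p = 7.72e-05, limma) against IM2. Its mean log2 ratio was 1.06 in D7E and -0.30 in WTA. Over all tested probes, 4.51% passed in D7F against IM2 (1.6% higher and 2.92% lower) and 7.04% in WTD against IM2 (2.08% higher and 4.96% lower). These comparisons share the IM2 cultures and are given only as values.

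**Figure D4:**
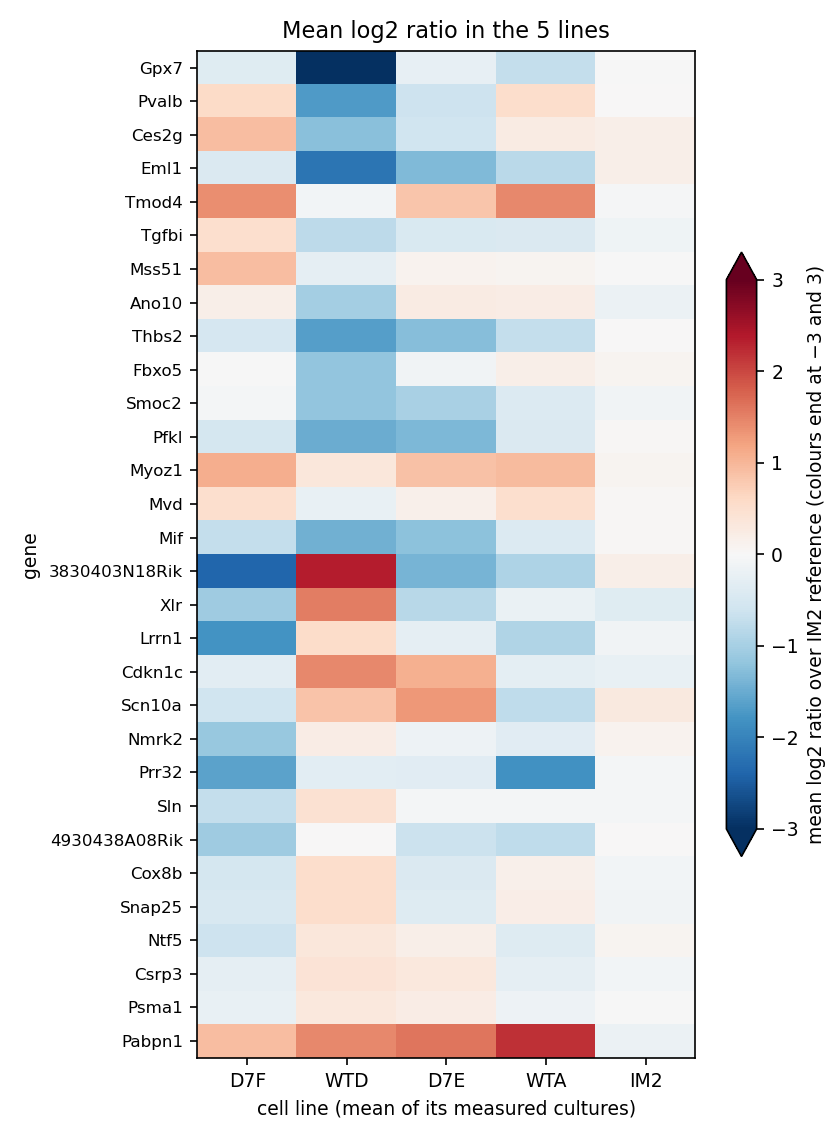
Mean log2 ratio over the IM2 reference for Pabpn1 and the called genes named by the rule (rows) in the lines D7F, WTD, D7E, WTA and IM2 (columns). Red is above and blue below the reference, with colours ending at -3 and 3. Called genes chosen after their values were seen are not drawn. D7F and WTD lie on opposite sides of the reference or differ in depth of colour, as at Gpx7 (-3.38 in WTD, -0.35 in D7F) and 3830403N18Rik (-2.37 in D7F, 2.35 in WTD).

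The high-level lines give a separate comparison of mutant and wild-type Pabpn1, in which D7E and WTA share no culture with D7F and WTD. In D7E against WTA 159 of 9706 probes passed (1.64%), 60 higher (0.618%) and 99 lower (1.02%), a count that depends on the spread of all 5 lines and was 2 when D7E and WTA were fitted alone. The split by direction was not steady. With arrays centred and scaled, 33 were higher and 98 lower, while without arrays with many values missing or at a limit 40 were higher and 23 lower, with probes required only in the lines compared 34 and 25, and with 1 dye orientation sufficing 22 and 11. Higher calls also outnumbered lower ones on Cy3 arrays alone (26 and 11), on Cy5 arrays alone (9 and 1) and with the replicate block (45 and 35). Of the 44 probes called in D7F against WTD, 10 had the same sign in D7E against WTA (22.7%), beside 42.7% of all tested probes. Of the 159 calls over all tested probes, 24 had the same sign as in D7F minus WTD and 135 the opposite sign. Among the 44 probes, a single one passed in D7E against WTA with the same sign, Msln, at 0.46 (adjusted p = 0.046, limma). By contrast 11 passed with the opposite sign, among them Pvalb (-1.15, adjusted p = 0.00651), Ces2g (-0.83, adjusted p = 0.0402), Cdkn1c (1.36, adjusted p = 0.000775), Prr32 (1.48, adjusted p = 0.000298), Scn10a (2.06, adjusted p = 0.00035), Gem (-0.85, adjusted p = 0.00651), Pfkl (-0.91, adjusted p = 0.00894), Csrp3 (0.61, adjusted p = 0.0316), Mif (-0.80, adjusted p = 0.0123) and Tac4 (0.89, adjusted p = 0.0373), all from limma with D7E minus WTA.

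**Figure D5:**
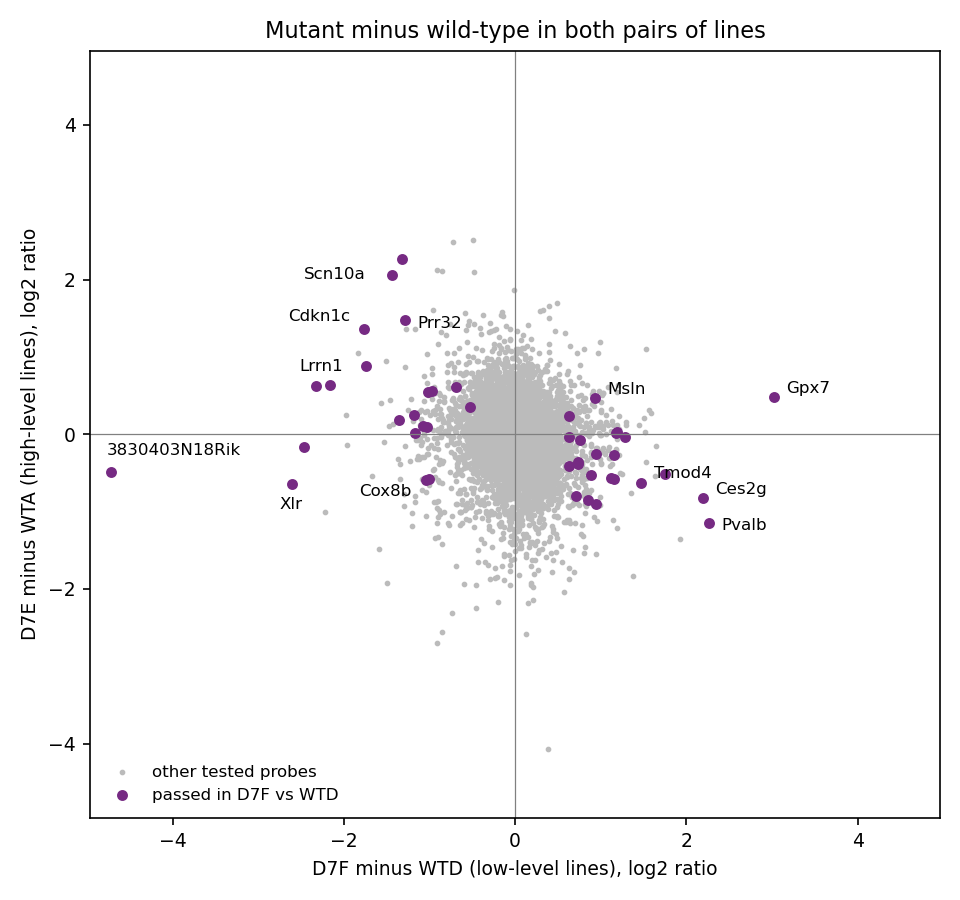
Mutant minus wild-type difference in log2 ratio for every tested probe, in the low-level lines (D7F minus WTD, horizontal axis) and in the high-level lines (D7E minus WTA, vertical axis), with the 44 probes called in D7F against WTD in purple. Of these, 10 lie in the quadrants of equal sign, among them Gpx7, 3830403N18Rik, Xlr, Cox8b and Msln.

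Whether the difference between mutant and wild-type lines itself differed between levels was tested as an interaction, D7F minus WTD less D7E minus WTA. It passed at 230 of 9706 probes (2.37%), 148 positive (1.52%) and 82 negative (0.845%). The count was 91 without D7F culture 2, 114 without D7F culture 1, and 112 and 118 without WTD culture 2 and 3. The excess of positive values was not steady either: without D7F culture 2 there were 46 positive and 45 negative, with 1 dye orientation sufficing 33 and 33, on Cy3 arrays alone 19 and 30, on Cy5 arrays alone 17 and 20, and without arrays with many values missing or at a limit 46 and 60. Scn10a had means of -0.59 in D7F and 0.85 in WTD, and of 1.30 in D7E and -0.76 in WTA (interaction -3.50, SE 0.28, adjusted p = 3.37e-05, limma). Of the transfected lines, WTD and D7E were above the reference, as was IM2 (0.29). Pvalb had means of 0.58 in D7F and -1.69 in WTD, and of -0.62 in D7E and 0.54 in WTA (interaction 3.42, SE 0.24, adjusted p = 1.32e-05, limma). Among the 34 tested hypoxia-responsive genes the interaction passed at 5, all positive (14.7%, beside 2.37% of all probes): Pfkl (1.85), Mif (1.51), Adm (2.40, adjusted p = 0.00491), Bnip3 (2.06, adjusted p = 0.00267) and the glycolytic enzyme Pgam1 (1.00, adjusted p = 0.0451), all limma. The list counts 1 probe per gene, the one with the lowest p in D7F minus WTD, so its share is not like that over all probes. The list's median was 0.28 in D7F minus WTD and -0.36 in D7E minus WTA. Among the 25 tested regulators of muscle differentiation it passed at Csrp3 (-1.29), Myf6 (1.39, adjusted p = 0.00146, limma) and Id3, an inhibitor of the MyoD family (-1.61, adjusted p = 0.00201, limma). The 37 of the 44 called probes at which the interaction passed were chosen on D7F minus WTD, which is itself a part of it. Pabpn1 had an interaction of 0.07 (SE 0.20, adjusted p = 0.926, limma): the mutant line had the lower ratio at both levels, with differences of -0.52 and -0.58, and neither passed.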

How the data were processed

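RNA of 15 cultures of 5 mouse cell lines had been hybridised on 2-colour arrays in both dye orientations, and the authors deposited 1 log ratio per probe and array. These are taken as log10 values deposited by the authors, because they stop exactly at -2 and 2, a ratio of 100 in base 10 and of 4 in base 2. Signs and calls do not depend on the base, while log2 values, standard errors and folds do. No source used here names the background correction or the normalization. Where the dye in a title and the channel sources disagreed (WTA culture 3, part I), the channel sources were used. Per probe and array, values at a limit were left out (7.91% on part I, 11.3% on part II). The deposited ratios were taken as culture over reference for both dye orientations, with no change of sign. They were multiplied to log2 and the 2 orientations were averaged. Control spots were left out.

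Each array part was fitted with limma 3.58.1 (R 4.3.3), with all 5 lines in 1 model, keeping each probe that had a value in 2 or more cultures of each line. p-values were adjusted by Benjamini-Hochberg over both parts together (4650 and 5056 probes). Gene symbols are those of the platform annotation, updated through the reference gene table: 6722 of 7600 distinct probes of part I and 9239 of 14326 of part II matched 1 symbol. List medians use 1 probe per gene, the one with the lowest p. Genes named are Pabpn1, the 12 called genes with the largest difference in each direction among those measured in all 6 cultures, up to 4 called members of each list, and the member with the lowest p where a list had no call. Outside this rule, and chosen after their values were seen, are 10 called genes listed as such and the uncalled Adm, Bnip3, Fdft1, Myf6, Myod1, Myog, Myf5, Pax7, Pabpc1, Pgam1, Id3 and Pgm1, and the germ-line genes other than Xlr given by name in the closing section. Precision is limited by how many arrays there were. The fit was tested on simulated data. The members, gene lists and naming rule were chosen with earlier results of these data known. Alternatives are described in the closing section.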

Additional observations from a re-analysis of the deposited data

Results flagged for a closer look

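For 32 of the 39 named genes the difference between mutant and wild-type lines itself differed between the low-level and the high-level lines, by the interaction in the limma fit at an adjusted p under 0.05. These genes were chosen on D7F minus WTD, which is 1 of the 2 differences compared, so a large interaction is partly built in. In 28 of the 32, D7E minus WTA had the opposite sign. An opposite sign enlarges the interaction, so this count is partly built in too. Over all tested probes, 42.7% had the same sign in both pairs of lines. Values are D7F minus WTD less D7E minus WTA, in log2 ratio.

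Among muscle genes the interaction was 3.42 for Pvalb, 2.10 for Tmod4, 1.42 for Cmya5, 1.17 for Mss51 and 0.83 for Myoz1, and it was -1.18 for Sln, -1.29 for Csrp3 and -1.54 for Nmrk2. For Mss51, Sln and Nmrk2 the D7E minus WTA difference was small, at 0.02, 0.02 and 0.18. Among the genes of the X chromosome it was -4.24 for 3830403N18Rik, -1.97 for Xlr, -2.77 for Prr32 and 1.20 for Car5b. In 3830403N18Rik and Xlr both pairs of lines had a negative difference, larger in size at the low level.

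Metabolic and redox genes had interactions of 2.55 for Gpx7, 3.02 for Ces2g, 1.85 for Pfkl, 1.51 for Mif, 1.10 for Mvd, 1.04 for Hebp2 and -1.12 for Cox8c. In growth control and protein turnover they were -3.13 for Cdkn1c, 1.43 for Fbxo5, 1.70 for Gem and -0.89 for Psma1. Matrix genes had 1.73 for Thbs2, 1.32 for Tgfbi and 1.69 for Smoc2. Genes known from nervous tissue had -2.95 for Lrrn1, -3.50 for Scn10a, -2.63 for Tac4 and -1.53 for Ntf5. The microtubule gene Eml1 had 2.26 and the uncharacterised 4930438A08Rik -1.19.

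The interaction did not pass for Msln, Xrcc5, Fxyd6, Ano10, Sacm1l, Cox8b and Snap25, with adjusted p from 0.0564 to 0.535 in limma. Each line is a single line, so whether the level, the genotype or the line goes with these values cannot be told apart.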

How the results depend on the processing

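The count of 44 calls in D7F against WTD, and those of 230 for the interaction and 159 for D7E against WTA, depended on the processing. In that order, the counts were 18, 79 and 45 with values at the limits kept, 14, 49 and 37 on Cy3 arrays alone, 16, 37 and 10 on Cy5 arrays alone, and 18, 66 and 33 where 1 dye orientation sufficed. They were 25, 136 and 59 with probes required only in the lines compared, 72, 437 and 375 with all 3 cultures of every line required, 30, 106 and 63 without arrays with many values missing or at a limit, and 135, 575 and 554 with arrays as units and culture as a random block. With the compared lines alone in the fit they were 29, 197 and 2. Arrays centred and scaled gave 102 calls in D7F against WTD. With the 4 transfected lines alone, an alternative chosen after seeing the data, the counts were 44, 197 and 141. With the replicate block they were 35, 145 and 80. Same-numbered cultures did not deviate together (r from -0.08 to -0.04). Because the values of 1 culture are noisy, these correlations cannot settle whether the numbers pair the cultures. Leaving out 1 culture gave 14 to 31 calls in D7F against WTD and 91 to 274 for the interaction. The lowest counts for the interaction were 91 without D7F culture 2, 112 without WTD culture 2, 114 without D7F culture 1 and 118 without WTD culture 3. Over all settings the named genes gave 730 values, of which 441 kept their call, 288 lost it and 1 changed sign, Cox8c, at 0.42 with values at the limits kept. The cause was not tested. Of 39 genes, 16 kept their call in under 50% of settings. Pabpn1 kept its sign in every setting and never passed. The weak correlation between dye orientations and the probes left without a value limit which genes could be called.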

Other observations

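In the Wnt and Notch list, 35 genes were tested in D7F against WTD, 13 with a positive and 22 with a negative difference, and the median was -0.16. None passed in limma, and 5 had an unadjusted p under 0.05, all lower. Over all tested genes, 3.24% were lower at an unadjusted p under 0.05, 55.6% had a positive difference and the median was 0.03. Heyl, a transcription factor induced by Notch, was -1.15, -1.50 and -0.97 in D7F and -0.17, -0.07 and 0.25 in WTD (difference -1.21, adjusted p = 0.0507, limma). The 2 lines did not overlap at Heyl. In the dystrophin complex and sarcolemma list 14 of 18 tested genes had a positive difference in D7F, beside 55.6% of all tested genes. The median of this list was 0.15, and none of its genes passed in limma, with 3 at an unadjusted p under 0.05, 2 higher and 1 lower in D7F. The same list had a median of -0.25 in D7E minus WTA.

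Germ-line and early embryo genes held 1 call in D7F against WTD, Xlr, of 20 tested. The interaction passed at 6 of the 20 (30%), 2 positive and 4 negative, beside 2.37% of all probes. These were Xlr, Zp3, Prm1, Tcstv1, Xlr3a and Sohlh2. The list share counts 1 probe per gene, the one with the lowest p in D7F minus WTD, which is a part of the interaction. It is therefore not like the share over all probes, and the second Xlr probe had an interaction of 0.36 that did not pass. By chromosome, the share of tested probes called in D7F against WTD was 1.46% on X (4 of 274), 1.23% on chromosome 10 (5 of 407) and 1.03% on chromosome 9 (5 of 487), beside 0.453% of all tested probes.

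Where a called gene had a second tested probe, the second did not pass for Lrrn1 (-0.49), Xlr (0.01) and Car5b (-0.01). No gene tested on both array parts was called on both. Nearest the threshold, the last called probe, which has no gene name, differed by 0.74 (adjusted p = 0.0497, limma), and the first probe outside it, for the glucose enzyme Pgm1, by 0.99 (adjusted p = 0.0507, limma).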
